A study of Mus musculus with 18 samples.

Results

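The mouse mitochondrial chromosome carries 37 genes, and all of them were found by chromosome among the 55401 gene identifiers counted in these libraries: 13 protein genes, 2 rRNA genes and 22 tRNA genes. They were measured by RNA sequencing in gp38+ stromal cells, the podoplanin-bearing fraction rich in fibroblasts, which had been sorted from salivary glands of Balb/c mice aged 8 to 12 weeks. Replication-defective adenovirus 5 had been given into the cannulated duct of the submandibular gland, and cells were taken at hour 3 (replicates 4, 5 and 6), day 1 (13, 14 and 15), day 2 (16, 17 and 18), day 8 (1, 2 and 3) or day 23 (7, 8 and 9). Uninfected glands (replicates 10, 11 and 12) gave hour 0. Each group had 3 libraries from 3 mice. The labels name no mice that received the cannula alone, so in every contrast with hour 0 cannulation and virus cannot be told apart.

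Mitochondria keep a small circular genome of their own. Its protein genes encode core subunits of the respiratory chain and of ATP synthase, while the far larger number of remaining subunits comes from the nucleus. Both strands are transcribed as long precursors that are cut at the tRNAs lying between the longer genes, so the level of each RNA depends on its processing and decay as well as on transcription. Of the 13 protein genes 12 are read from the heavy-strand promoters, as are both rRNA genes and 14 tRNA genes. mt-Nd6 and 8 tRNA genes are read in the opposite direction from the light-strand promoter and are called light-strand genes here.

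Total counts per library ran from 4398234 to 15234431. Libraries of replicates 1 to 9 (hour 3, day 8 and day 23) and of replicates 10 to 18 (hour 0, day 1 and day 2) form separate sets, a division that the labels do not name. Sensory receptor genes, whose transcripts belong to olfactory and taste tissue and which serve here as a measure of background, took 318 to 1947 counts per 1000000 (CPM) in replicates 10 to 18 and 10.2 to 33.0 in replicates 1 to 9. When hour 3, day 8 or day 23 is compared with hour 0, time and set of libraries cannot be told apart. The contrasts of day 1 and day 2 with hour 0 and with each other lie within a set, as do those among hour 3, day 8 and day 23. All 8 fibroblast markers were detected in every library, with summed levels of 9576 to 23431 CPM. The 9 salivary secretory markers, most of whose counts were on the mucin-like gene Mucl2, summed to 337 to 3861 CPM at day 1 and day 2, to 35615 to 77791 CPM at hour 3 and hour 0, and to 43989 to 175880 CPM at day 8 and day 23. Summed levels of the other marker lists were 166 to 2604 CPM for epithelial, 5.58 to 135 for endothelial, 11.4 to 143 for leukocyte, 33.7 to 1483 for muscle, 10.6 to 208 for glial, 0 to 6.36 for adipocyte and 0 to 59.3 for erythroid genes. In these bulk libraries fewer cells of a type and less RNA per cell cannot be told apart.

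Several mitochondrial genes have near-identical copies in the nuclear genome, which bears on the counts of those genes. A stretch of 4663 bases on chromosome 1 (chr1:24611535-24616197, GRCm38, minus strand) holds gene models that repeat the mitochondrial order from mt-Co1 to mt-Nd4. Gm28661 matched mt-Co2 over 681 bases, Gm10925 matched mt-Atp6 over 678 bases, Gm28437 matched mt-Co3 over 783 bases and Gm10222 matched mt-Nd4l over 294 bases, each with 0 differences. Gm28438 differed from mt-Nd3 at 1 of 345 bases, the substitution T3C (mt-Nd3 base first, counted from 1 at the 5′ end of the gene). The first 60 bases of both genes, from the GENCODE M21 transcripts, are shown because a read that lacks the capital letter fits either gene equally well. They lie at chrM:9459-9518 on the plus strand and at chr1:24613060-24613119 on the minus strand.
mt-Nd3: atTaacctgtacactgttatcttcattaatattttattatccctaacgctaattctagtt
Gm28438: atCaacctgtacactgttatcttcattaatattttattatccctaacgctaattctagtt

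The 5 protein genes with the largest share of such sequence were counted rarely. Of all 50-base windows of a gene, 100% for mt-Co2, 99.9% for mt-Co3, 99.5% for mt-Atp6, 98.8% for mt-Nd4l and 98.0% for mt-Nd3 also occurred in an annotated nuclear transcript, against 62.2% for mt-Nd4, 51.1% for mt-Co1, 8.19% for mt-Nd2, 7.61% for mt-Nd5 and 0% for mt-Nd1, mt-Cytb, mt-Nd6 and mt-Atp8. Per kb of exon, mt-Co1 had a median of 1769 CPM over the 18 libraries and mt-Cytb 1370.0, while mt-Co2 had 2.33, mt-Co3 1.22 and mt-Atp6 3.38. All 3 subunits of the catalytic core of cytochrome c oxidase are encoded by mt-Co1, mt-Co2 and mt-Co3, and their counts were 12762 to 64526, 3 to 51 and 2 to 38 per library. How reads that map to several places were treated is not given in the sources used here, and its part in these low counts was not tested. mt-Atp8 was low too, at 1 to 20 counts, although none of its windows was found in an annotated nuclear transcript. Its last 43 bases are shared with mt-Atp6 and match the start of Gm10925, but they are too short to fill a 50-base window. The place of the rest of mt-Atp8 in the chromosome 1 stretch falls in 233 bases without a gene model (chr1:24614652-24614884). The sequence of those bases was not analysed here. Values of these genes are read with that limit, and mt-Nd4l did not pass the filter on low counts.

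**Figure D1:**
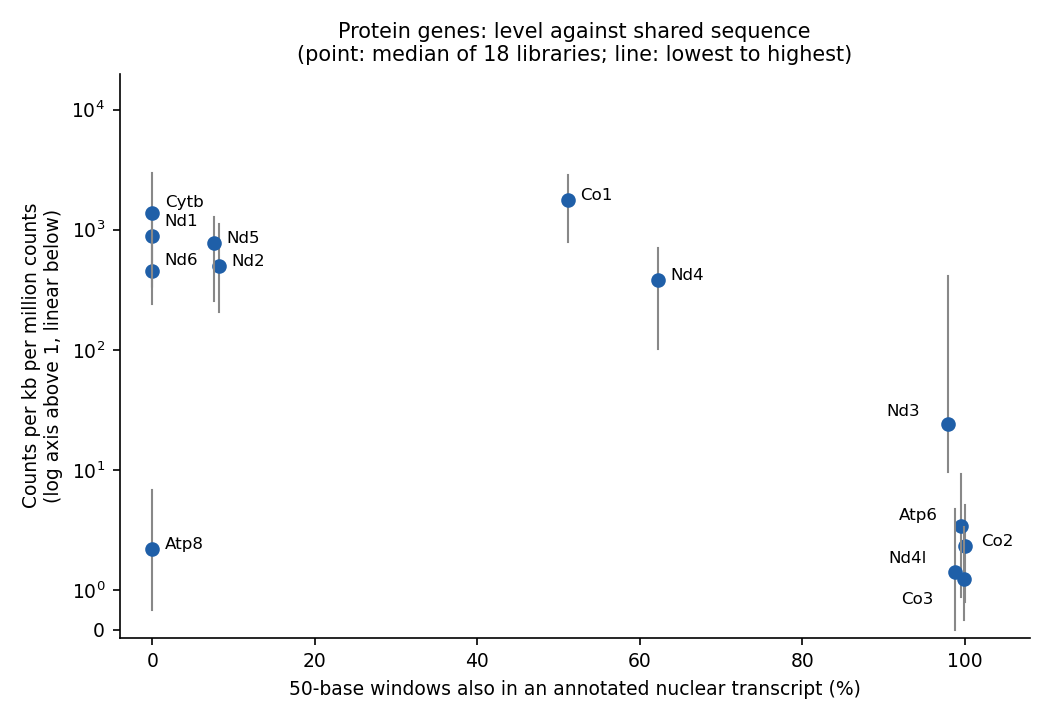
Level of each mitochondrial protein gene (CPM per kb of exon, log axis above 1, median and range of 18 libraries) against the percent of its 50-base windows that also occur in an annotated nuclear transcript. The genes at 98.0% or more have medians from 1.22 to 23.9, and mt-Atp8 at 0% has 2.18, while the other 7 genes have medians from 382 to 1769.

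Overlaps between neighbours also limit single counts. mt-Atp8 and mt-Atp6, which encode subunits of ATP synthase, share 43 bases in the same direction. The last 60 bases of mt-Atp8 (chrM:7910-7969) and the first 60 of mt-Atp6 (chrM:7927-7986), both on the plus strand of GRCm38, are given with the shared bases in capitals.
mt-Atp8 end: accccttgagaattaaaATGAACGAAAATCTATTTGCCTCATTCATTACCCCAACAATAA
mt-Atp6 start: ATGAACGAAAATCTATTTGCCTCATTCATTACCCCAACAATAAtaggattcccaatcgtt

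mt-Nd5 and mt-Nd6 encode subunits of complex I (NADH dehydrogenase) on opposite strands and overlap by 14 bases at their 3′ ends. The last 50 bases of each are given 5′ to 3′, mt-Nd5 from the plus strand (chrM:13516-13565) and mt-Nd6 from the minus strand (chrM:13552-13601), with the bases that face each other in capitals. The pair is shown because the balance of these neighbours differed between the groups, as described below.
mt-Nd5 end: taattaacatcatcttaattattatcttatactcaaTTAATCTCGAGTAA
mt-Nd6 end: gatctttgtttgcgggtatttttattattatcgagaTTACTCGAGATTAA

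The strand setting of the counting is not given in the sources used here. RNA copied from the opposite strand of a gene therefore cannot be told apart from that gene's own RNA, for mt-Nd6 and the tRNA genes above all.

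The rRNA genes took most of the mitochondrial counts, 86.6% to 92.5% in each library. mt-Rnr1 encodes the small and mt-Rnr2 the large rRNA of the mitochondrial ribosome. Together they took 4.94%, 5.62% and 6.40% of all counts at hour 0, 5.59%, 6.00% and 8.15% at hour 3, 3.71%, 4.03% and 2.80% at day 1, and 5.42%, 5.28% and 4.56% at day 2. Day 8 libraries had 11.9%, 14.7% and 13.9%, and day 23 libraries had 9.34%, 9.83% and 6.70%. Day 1 lay below and day 8 above every library of the other groups, and all 3 libraries of day 23 lay above those of hour 0. The 2 genes kept a similar balance, with 1.65 to 2.30 counts on mt-Rnr2 for each count on mt-Rnr1. Per kb of exon they were level at hour 0, at 21609 ± 2969 CPM for mt-Rnr1 and 22685 ± 2833 CPM for mt-Rnr2 (SD, n = 3).

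Relative to the protein genes, rRNA counts were most abundant at day 8. The ratio of rRNA to protein gene counts, which needs no scaling between libraries, was 7.28, 7.12 and 7.06 at hour 0, 9.77, 10.1 and 9.75 at hour 3, 11.3, 11.7 and 9.33 at day 1, and 7.03, 7.16 and 6.70 at day 2. It was 12.0, 12.4 and 11.9 at day 8, and 9.71, 7.01 and 6.91 at day 23. Day 1 did not overlap with hour 0 or with day 2, while day 2 overlapped with hour 0. The 13 protein genes together took 0.678%, 0.789% and 0.907% of all counts at hour 0, 0.572%, 0.596% and 0.836% at hour 3, and 0.329%, 0.343% and 0.300% at day 1. Their share was 0.771%, 0.738% and 0.680% at day 2, 0.991%, 1.18% and 1.17% at day 8, and 0.961%, 1.40% and 0.970% at day 23. Day 1 was the lowest group and day 8 and day 23 were above hour 0 without overlap. These sums were not tested, since the genes were chosen with earlier results of these data known.

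**Figure D2:**
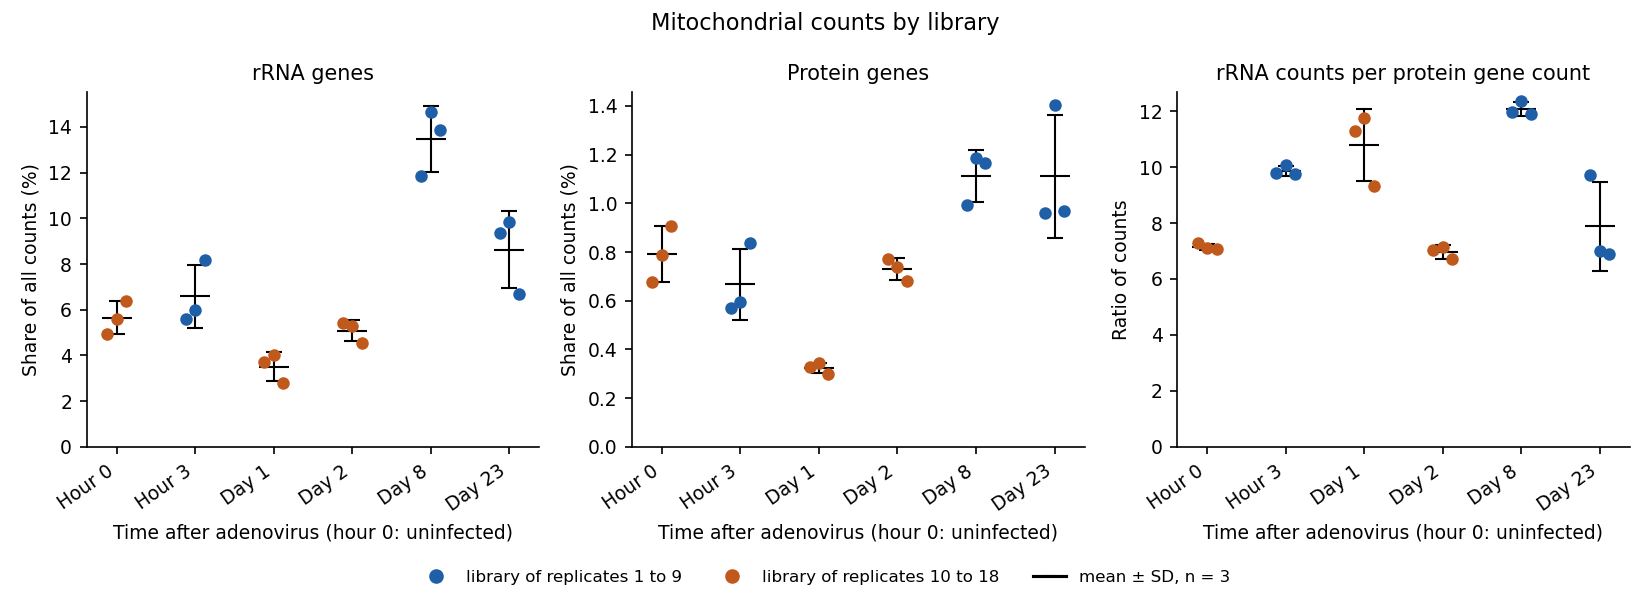
Share of all counts on the 2 rRNA genes (left) and on the 13 protein genes (middle), in percent, and the ratio of rRNA to protein gene counts (right), by group. Points are libraries, coloured by set, and bars are mean ± SD (n = 3); day 1 is lowest in both shares, at 3.51% ± 0.636 and 0.324% ± 0.0216.

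Single genes were tested with edgeR's quasi-likelihood test, fitted to all 27525 genes that passed the filter on low counts, and levels of single genes below are CPM scaled by TMM. Of the members, 12 protein genes, 2 rRNA genes and 13 tRNA genes passed the filter. A gene is said to be higher or lower, or to have risen or fallen, where the Benjamini-Hochberg adjusted p over all genes tested is under 0.05. In the test for any change over the 6 groups, which called 83.9% of all genes, 10 of 12 protein genes, both rRNA genes and 13 of 13 tRNA genes were called. mt-Co2 (adjusted p = 0.17) and mt-Atp8 (adjusted p = 0.16) did not pass. Rarely counted tRNA genes could reach this test through the groups where they are high. mt-Th had 0 counts at hour 0, day 1 and day 2 and was kept only through the other groups, so its call adds nothing to that. A filter of 5 CPM in 3 libraries drops most tRNA genes before testing. With it 6 tRNA genes were called, and those dropped were not tested. The genes it keeps could also pass it through the groups where they are high.

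At 1 day after the virus, most of the protein genes tested were lower than in uninfected glands. Of the 12 tested, which include the light-strand gene mt-Nd6, 7 were lower and 0 higher, all 7 of the heavy strand, where 12.8% of all genes tested were lower and 9.67% higher. The median log2 fold change of the 12 was -1.57, beside -0.41 over all genes. mt-Cytb, the mitochondrially encoded subunit of complex III, had 332, 311 and 301 CPM at day 1, against 1191, 1372 and 1861 CPM at hour 0. Every day 1 library lay below every hour 0 library, and the log2 fold change was -2.23 ± 0.22 (SE; adjusted p = 5.2e-09).

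Complex I genes of the heavy strand fell too. mt-Nd4 had 130.2, 131 and 111 CPM at day 1, against 426, 448 and 603 CPM at hour 0 (log2 fold change -1.99 ± 0.23, adjusted p = 4.8e-08). mt-Nd5 had 401, 392 and 366 CPM at day 1, against 1093, 1260.2 and 1478 CPM at hour 0 (-1.72 ± 0.22, adjusted p = 2.7e-07). The groups did not overlap for either gene. mt-Nd1 changed by -1.45 and mt-Nd2 by -1.44 on the log2 scale, with adjusted p of 1.6e-06 and 5.6e-06. mt-Nd3 had a log2 fold change of -1.21 ± 0.51 and did not pass (adjusted p = 0.090).

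In complex IV, mt-Co1, the catalytic subunit, had 1079, 1133 and 972 CPM at day 1, against 1706, 1984 and 2408 CPM at hour 0. The groups did not overlap, and the log2 fold change of -0.94 ± 0.20 (adjusted p = 0.00087) was smaller than that of mt-Cytb. mt-Co2 (-0.55 ± 0.69, adjusted p = 0.62) and mt-Co3 (-1.95 ± 0.85, adjusted p = 0.10) did not pass at their low counts. Of the ATP synthase genes, mt-Atp6 passed at -1.70 ± 0.60 (adjusted p = 0.039) with 6 to 9 counts per library at day 1 and 18 to 27 at hour 0, and lost the call when any 1 of the 6 libraries was left out. mt-Atp8, at -1.78 ± 1.11, did not pass (adjusted p = 0.27). The fall of mt-Nd1, mt-Nd2, mt-Co1, mt-Nd4, mt-Nd5 and mt-Cytb at day 1 kept its call in each of the 16 other settings run for this comparison, library totals alone in place of TMM and each left-out replicate among them.

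The rRNA genes were lower at day 1 as well, with fold changes nearer 0. mt-Rnr1 had 10385, 10531 and 7773 CPM at day 1, against 14796, 16564 and 20701 CPM at hour 0 (log2 fold change -0.86 ± 0.24, adjusted p = 0.0082). mt-Rnr2 had 19000.0, 20086 and 14496 CPM at day 1, against 26025, 28943 and 35538 CPM at hour 0 (-0.76 ± 0.23, adjusted p = 0.018). No library of either group overlapped with the other. The calls rest on single libraries: without hour 0 replicate 12 the changes were -0.71 and -0.62, and neither passed, and without day 1 replicate 15 mt-Rnr2, at -0.63, did not pass. The summed secretory markers were 2941 to 3861 CPM at day 1, against 36373 to 77791 CPM at hour 0, and receptor background was 318 to 673 CPM at day 1, against 659 to 1067 CPM at hour 0. Fibroblast markers summed to 9576 to 12041 CPM at day 1, against 19856 to 23431 CPM at hour 0, but the single markers differed in direction. Pdpn, which encodes podoplanin, had 540, 265 and 485 CPM at day 1, against 80.8, 67.4 and 68.3 CPM at hour 0. Pdgfrb and Thy1 overlapped between the groups, and Pdgfra, Col1a1, Col1a2, Dcn and Lum lay below hour 0 without overlap. Muscle markers summed to 33.7 to 73.6 CPM at day 1, against 781 to 1483 CPM at hour 0. Glial markers had 10.6 to 15.3 CPM at day 1, against 76.4 to 94.1 CPM at hour 0, and epithelial markers 276 to 331 CPM at day 1, against 417 to 626 CPM at hour 0. Of these lists only the secretory marker Smr3a was at 0 in all day 1 libraries. The part of these differences in the mitochondrial values was not tested.

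mt-Nd6, the only light-strand protein gene and a membrane subunit of complex I, was not called at day 1. It had 212, 214 and 198 CPM at day 1, against 161, 203 and 193 CPM at hour 0. The groups overlapped, and the log2 fold change of 0.16 ± 0.23 did not pass (adjusted p = 0.66). As a share of the counts on the 13 protein genes, mt-Nd6 took 8.16%, 8.20% and 8.29% at day 1 and 5.99%, 6.25% and 6.57% at day 2, against 2.87%, 3.17% and 2.43% at hour 0. Counted against mt-Nd5, whose 3′ end it faces, mt-Nd6 had 53.0, 54.5 and 54.1 counts per 100 at day 1 and 34.2, 36.4 and 36.6 at day 2, against 14.7, 16.1 and 13.1 at hour 0. The 3 groups did not overlap in either ratio, whose order was day 1, day 2, hour 0 from high to low. The ratios depend on no scaling between libraries and were not tested. As CPM of the library total per kb of exon, mt-Nd6 had 513 ± 31.0 and mt-Nd5 271 ± 16.2 at day 1, while mt-Nd6 had 427 ± 53.1 and mt-Nd5 833 ± 100.04 at hour 0 (SD, n = 3), so that their order per length differed between these groups.

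mt-Cytb moved the other way within the same sum. It took 12.7%, 11.9% and 12.6% of the protein gene counts at day 1 and 17.1%, 17.2% and 17.3% at day 2, against 21.3%, 21.5% and 23.3% at hour 0. mt-Nd4 took 5.00%, 5.03% and 4.64% at day 1 and 4.73%, 4.46% and 4.47% at day 2, against 7.59%, 7.00% and 7.56% at hour 0. mt-Co1 took 41.4%, 43.5% and 40.7% at day 1 and 37.6%, 36.9% and 35.9% at day 2, against 30.4%, 31.0% and 30.2% at hour 0. For these 3 genes neither infected group overlapped with hour 0.

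**Figure D3:**
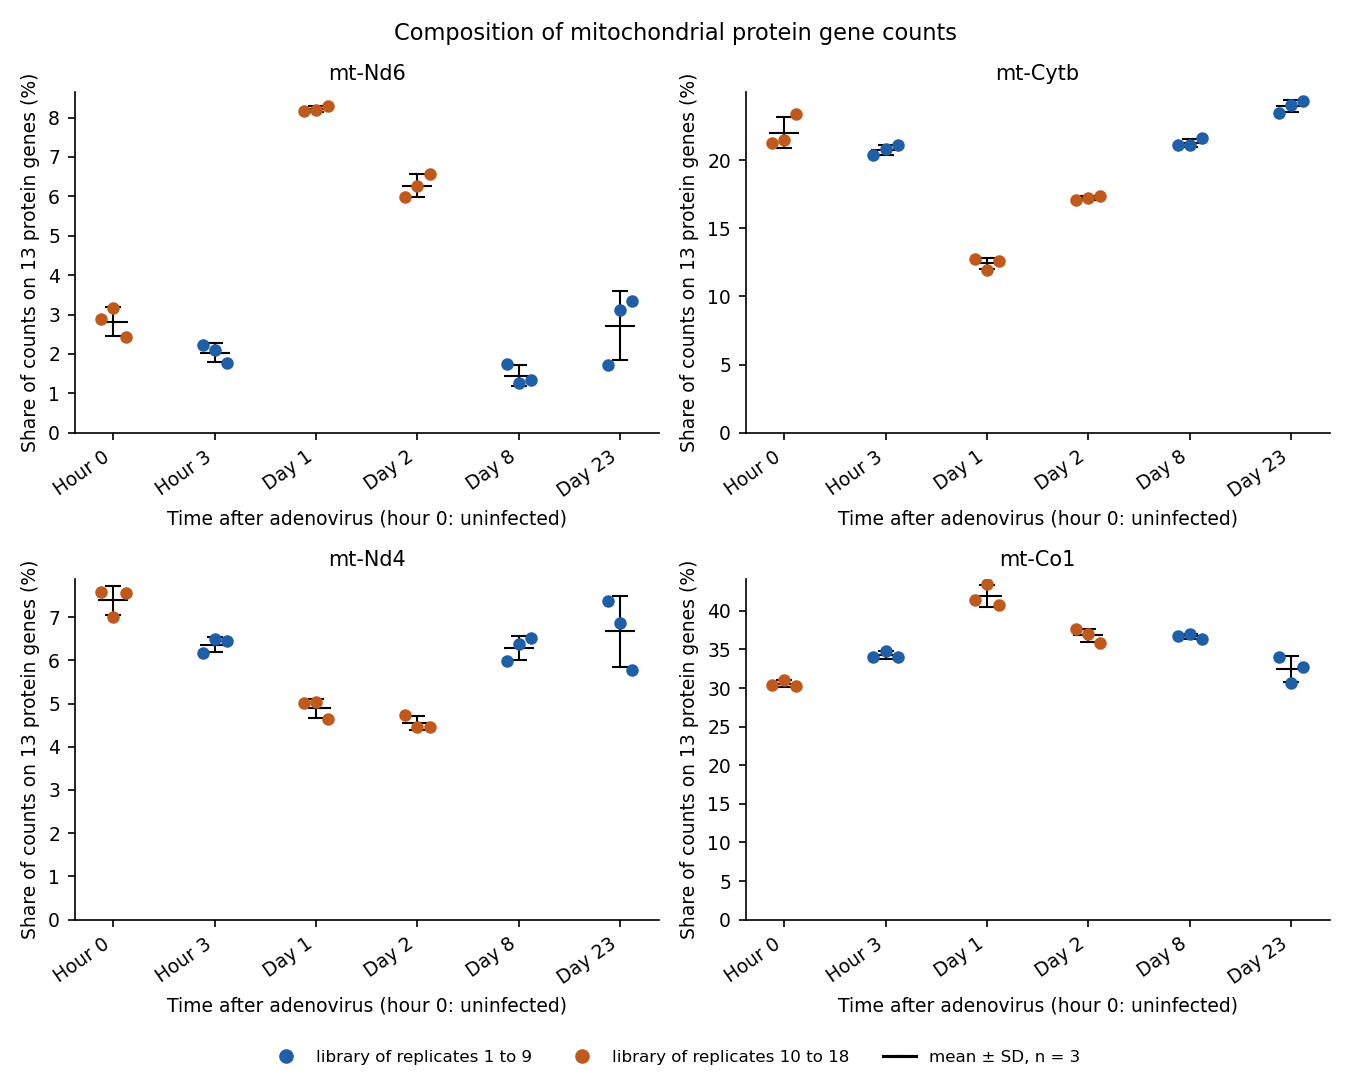
Share of the counts on 13 mitochondrial protein genes taken by mt-Nd6, mt-Cytb, mt-Nd4 and mt-Co1, in percent, by group. Points are libraries, coloured by set, and bars are mean ± SD (n = 3); mt-Nd6 is highest at day 1, at 8.22% ± 0.0679, where mt-Cytb is lowest, at 12.4% ± 0.428.

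At 2 days after the virus, part of the protein genes were higher than at day 1 and part lower than at hour 0. Against day 1, 6 of 12 were higher and 0 lower, where 12% of all genes tested were higher and 11.2% lower, and the median was 0.92 beside 0.78 over all genes. mt-Cytb had 871, 809 and 777 CPM at day 2, against 332, 311 and 301 CPM at day 1 (log2 fold change 1.38 ± 0.22, adjusted p = 4.7e-05). mt-Nd5 was higher by 1.11 ± 0.21 (adjusted p = 0.00045) and mt-Nd1 by 1.04 ± 0.20 (adjusted p = 0.00048) on the log2 scale. mt-Nd4 (0.81), mt-Nd2 (0.77) and mt-Co1 (0.72) were also higher, and without day 1 replicate 15 mt-Nd4, at 0.72, and mt-Co1, at 0.66, lost the call. mt-Rnr1 (0.38 ± 0.24, adjusted p = 0.23) and mt-Rnr2 (0.22 ± 0.23, adjusted p = 0.49) did not pass. Of the genes called between day 2 and day 1, 51.8% were higher, a share that was 77.9% with library totals alone and 71.0% with DESeq2 size factors.

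Against hour 0, 4 protein genes were lower at day 2 and 1 was higher, where 9.63% of all genes tested were lower and 5.12% higher. mt-Nd4 had 241, 209.7 and 200.1 CPM at day 2, against 426, 448 and 603 CPM at hour 0 (log2 fold change -1.18 ± 0.22, adjusted p = 0.00020). mt-Cytb had 871, 809 and 777 CPM at day 2, against 1191, 1372 and 1861 CPM at hour 0 (-0.85 ± 0.22, adjusted p = 0.0057). mt-Nd2 (-0.67 ± 0.21, adjusted p = 0.030) and mt-Nd5 (-0.61 ± 0.21, adjusted p = 0.047) were the other lower genes. mt-Nd6 was higher, at 305, 294 and 295 CPM at day 2, against 161, 203 and 193 CPM at hour 0 (0.68 ± 0.23, adjusted p = 0.041). The groups did not overlap for any of these 5 genes, but of these calls only that of mt-Nd4 held with each of the 6 libraries left out in turn. mt-Nd6 lost its call without any 1 of them (0.58 to 0.74), mt-Cytb without replicate 12 (-0.65), mt-Nd2 without 12 (-0.53), 17 (-0.64) or 18 (-0.66), and mt-Nd5 without 11 (-0.64), 12 (-0.50), 16 (-0.67), 17 (-0.60) or 18 (-0.60). Scaled by library totals alone, mt-Nd4, at -0.81, was still lower and mt-Nd6, at 1.05, still higher, while mt-Cytb, at -0.47, did not pass (adjusted p = 0.13). Of all genes called in this comparison 34.7% were higher, a share that was 66.7% with library totals and 52.7% with DESeq2 size factors. The rRNA genes had log2 fold changes of -0.48 ± 0.24 and -0.54 ± 0.23 and did not pass, with adjusted p of 0.21 and 0.13. Muscle markers summed to 197 to 266 CPM at day 2, 33.7 to 73.6 at day 1 and 781 to 1483 at hour 0. In the same order of groups glial markers had 160 to 208, 10.6 to 15.3 and 76.4 to 94.1 CPM. Secretory markers had 337 to 1601, 2941 to 3861 and 36373 to 77791 CPM. Receptor background was highest at day 2. The part of these differences in the mitochondrial values was not tested.

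**Figure D4:**
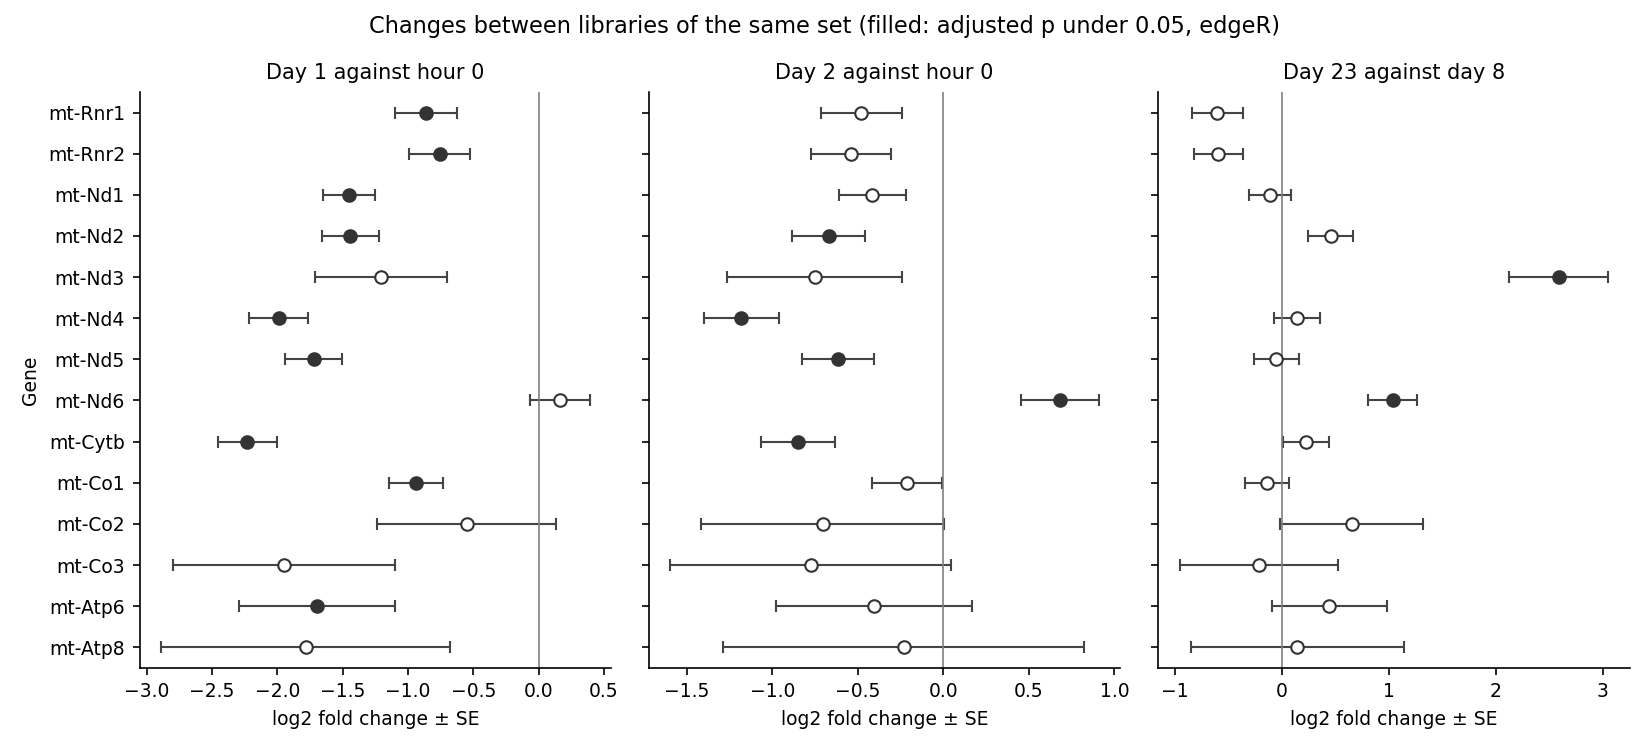
Log2 fold change ± SE (edgeR) of 14 mitochondrial genes for day 1 against hour 0, day 2 against hour 0 and day 23 against day 8, which each lie within a set of libraries. Filled points have an adjusted p under 0.05; at day 1 mt-Cytb is lowest among them at -2.23, while mt-Nd6, at 0.16, did not pass.

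At day 8 rRNA was higher than in uninfected glands, a comparison that crosses the sets of libraries. mt-Rnr1 had 39852, 56994 and 56557 CPM at day 8, against 14796, 16564 and 20701 CPM at hour 0 (log2 fold change 1.56 ± 0.24, adjusted p = 2.8e-05). mt-Rnr2 had 79015, 110206 and 107314 CPM at day 8, against 26025, 28943 and 35538 CPM at hour 0 (1.71 ± 0.24, adjusted p = 6.4e-06). Neither gene overlapped between the groups, and with library totals alone both were still higher, by 1.15 and 1.30. Of the 12 protein genes 7 were higher and 0 lower, where 11.2% of all genes tested were higher and 32.7% lower. mt-Co1, which followed mt-Nd3 by size of change, had 3653, 4998 and 5001 CPM at day 8, against 1706, 1984 and 2408 CPM at hour 0 (1.16 ± 0.21, adjusted p = 0.00013). Epithelial markers summed to 2048 to 2604 CPM at day 8, against 417 to 626 CPM at hour 0, leukocyte markers to 95.8 to 143 CPM at day 8, against 14.3 to 28.0 CPM at hour 0, and endothelial markers to 97.5 to 135 CPM at day 8, against 34.9 to 48.8 CPM at hour 0. Fibroblast markers summed to 12976 to 17477 CPM at day 8, against 19856 to 23431 CPM at hour 0. Muscle markers had 550 to 746 CPM at day 8, against 781 to 1483 CPM at hour 0. Erythroid markers had 20.1 to 59.3 CPM at day 8, against 1.87 to 8.57 CPM at hour 0. All 7 epithelial, 7 leukocyte and 4 endothelial markers were detected in both groups. The part of these lists in the mitochondrial values was not tested.

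The other protein genes that were higher at day 8 were mt-Nd1 (0.90), mt-Cytb (0.84), mt-Nd5 (0.76), mt-Nd4 (0.67), mt-Nd2 (0.64) and mt-Nd3 (1.20). Of these, mt-Nd2 (0.45 to 0.61), mt-Nd3 (0.92 to 1.18) and mt-Nd4 (0.47 to 0.61) lost their calls without replicate 2, 3, 10 or 11, and mt-Nd5 without 2 (0.57). Under library totals only mt-Co1 and mt-Nd1, at 0.75 and 0.49, kept the call. mt-Nd6 had 174, 169.9 and 185 CPM at day 8, against 161, 203 and 193 CPM at hour 0, a log2 fold change of -0.08 ± 0.23 that did not pass. Its 7.22 to 10.1 counts per 100 on mt-Nd5 at day 8 lay below the 13.1 to 16.1 of hour 0. Of all genes called, 25.5% were higher, against 10.3% with library totals.

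At 3 hours after the virus the direction of the protein genes depended on scaling. With TMM 7 of 12 were higher than at hour 0 and 0 lower, where 16.9% of all genes tested were higher and 43.1% lower. With library totals alone, which moved the median of all genes by -1.15 on the log2 scale, 0 were higher and 2 lower. mt-Co1 had 3769, 3799 and 5388 CPM at hour 3, against 1706, 1984 and 2408 CPM at hour 0 (log2 fold change 1.09 ± 0.21, adjusted p = 8.3e-05), but -0.09 with library totals. mt-Nd4, higher by 0.71 with TMM, was lower with library totals, at -0.46 (adjusted p = 0.038). Without replicate 6 mt-Nd4 (0.48) and mt-Nd5 (0.51) lost the call made with TMM, as did mt-Nd3 without 5 (1.10), 6 (0.92), 10 (1.11) or 11 (0.85). mt-Rnr1 and mt-Rnr2 had 1.35 ± 0.24 and 1.41 ± 0.24 with TMM, and 0.18 and 0.23 with library totals, which did not pass. Of all genes called 28.1% were higher with TMM and 7.09% with library totals. What does not depend on scaling is the ratio of rRNA to protein gene counts, which was above that of hour 0 in each hour 3 library. That comparison still crosses the sets of libraries, so time and set cannot be told apart in it. Muscle markers summed to 42.5 to 72.0 CPM at hour 3, against 781 to 1483 CPM at hour 0. Endothelial markers had 5.58 to 12.4 and 34.9 to 48.8 CPM in that order, and glial markers 25.8 to 29.9 and 76.4 to 94.1 CPM. Fibroblast and adipocyte markers also lay below hour 0 without overlap, and the other lists overlapped. The part of these differences in the mitochondrial values was not tested.

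Against hour 3, within the set, no mitochondrial gene was called at day 8 with TMM and the filter on low counts. The counts were 0 higher and 0 lower in edgeR among the 27 members tested, where 16.5% of all genes tested were higher and 14.1% lower. At an unadjusted p under 0.05 there was 1, mt-Nd6, at -0.52. DESeq2 called 1 protein gene lower and limma-voom 0, and edgeR without the filter called 1 rRNA gene higher. With library totals alone, which moved the median of all genes by 0.76, 6 of 12 protein genes and both rRNA genes were higher at day 8, mt-Rnr2 by 1.07 (adjusted p = 0.00049) and mt-Co1 by 0.84 (adjusted p = 0.00084). Of all genes called 53.9% were higher with TMM and 81.9% with library totals. Epithelial markers summed to 2048 to 2604 CPM at day 8, against 418 to 594 CPM at hour 3. Muscle markers had 550 to 746 CPM at day 8, against 42.5 to 72.0 CPM at hour 3. Endothelial, leukocyte, glial and erythroid markers were also above hour 3 without overlap, fibroblast markers below, and the other lists overlapped. The part of these differences in the mitochondrial values was not tested.

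The libraries of day 23 did not behave as 1 group. mt-Nd3, a small complex I gene, had 77 counts in replicate 7, 2075 in replicate 8 and 415 in replicate 9, although replicate 9 had the lowest total count of the 3. For each 1000 counts on mt-Nd5 it had 8.13 in replicate 7, 61.2 in replicate 8 and 60.5 in replicate 9, while the other 15 libraries of the series had 2.97 to 10.2. Replicates 8 and 9 also had more mt-Nd6, 18.7 and 21.6 counts per 100 on mt-Nd5 against 10.5 in replicate 7, and less rRNA, 7.01 and 6.91 counts per protein gene count against 9.71. Gm10925, the nuclear copy of mt-Atp6, had 13.0 and 9.91 counts per 1000 on mt-Nd5 in replicates 8 and 9, against 2.64 in replicate 7 and at most 5.31 in any other library. Secretory markers summed to 175880 and 145881 CPM in replicates 8 and 9 and to 65349 CPM in replicate 7; their part in these differences was not tested.

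Results for day 23 are therefore set beside their values without these 2 libraries, where replicate 7 as the lone library is assumed to vary like the other groups. Against day 8, mt-Nd3 (log2 fold change 2.59 ± 0.46, adjusted p = 0.0010) and mt-Nd6 (1.03 ± 0.23, adjusted p = 0.0063) were the protein genes called, where 2.25% of all genes tested were higher and 3.08% lower. mt-Nd6 had 177, 553 and 351 CPM at day 23, against 174, 169.9 and 185 CPM at day 8, and the groups overlapped. Without replicate 8 mt-Nd6 was at 0.58 and did not pass, and without replicates 8 and 9 mt-Nd3 was at -0.26 and mt-Nd6 at 0.00, and neither passed. The rRNA genes had log2 fold changes of -0.60 ± 0.24 and -0.59 ± 0.23 and did not pass, nor did they without both libraries, where their median was -0.57. Against hour 3, mt-Nd3 was the only protein gene called (2.66 ± 0.47, adjusted p = 4.2e-05), where 15.7% of all genes tested were higher and 14.3% lower, and it was at -0.18 without both libraries. With library totals alone, which moved the median of all genes by 0.70, 7 protein genes were higher than at hour 3. Of all genes called 52.3% were higher with TMM and 80.0% with library totals. Epithelial markers summed to 639 to 1012 CPM at day 23, against 2048 to 2604 CPM at day 8. Leukocyte, endothelial, muscle and erythroid markers were also below day 8 without overlap, and the other lists overlapped. The part of these differences in the mitochondrial values was not tested.

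Against hour 0, across the sets, 8 of 12 protein genes and both rRNA genes were higher at day 23, where 8.51% of all genes tested were higher and 25.4% lower. mt-Cytb had 2420.2, 4284 and 2559 CPM at day 23, against 1191, 1372 and 1861 CPM at hour 0 (log2 fold change 1.07 ± 0.22, adjusted p = 0.0011), and the groups did not overlap. mt-Co1 was higher by 1.03 ± 0.21 (adjusted p = 0.00094) and mt-Rnr2 by 1.12 ± 0.23 (adjusted p = 0.0014). Without replicates 8 and 9 mt-Cytb, at 0.72, did not pass, mt-Co1 was the only protein gene that passed, at 0.79, and both rRNA genes were still higher, mt-Rnr1 by 1.08 and mt-Rnr2 by 1.09. Without replicate 8 alone mt-Nd1 (0.50), mt-Nd4 (0.48), mt-Nd5 (0.38) and mt-Nd6 (0.51) lost their calls, and without replicate 10 mt-Nd5 (0.62) did. Under library totals 4 protein genes and mt-Rnr2 kept their calls, and 6.05% of all genes called were higher in place of 25.1%.

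The tRNA genes are 59 to 75 bases long and were counted rarely, with 109 to 1422 counts per library in all. mt-Tk, had 0 counts in every library, and 8 others did not pass the filter (mt-Tf, mt-Ti, mt-Tn, mt-Tc, mt-Tg, mt-Tr, mt-Ts2 and mt-Tl2). mt-Ts1, a serine tRNA gene on the light strand whose last 3 bases face mt-Co1, had the most counts of all tRNA genes and is shown as it lies on the minus strand (chrM:6870-6938), with those bases in capitals.
mt-Ts1: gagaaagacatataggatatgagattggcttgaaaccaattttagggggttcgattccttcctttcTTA

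In replicates 8 and 10 to 18, but in no other library, mt-Ts1 made up most of the counts on the 8 light-strand tRNA genes. The sum of the 8 light-strand tRNA genes lay in each of replicates 1 to 9 except 8 below all of replicates 10 to 18. They summed to 46.2, 71.6 and 60.6 CPM of the library totals at hour 0, 33.6, 48.8 and 35.4 at day 1 and 148, 194 and 199 at day 2, and to 6.65, 6.34 and 10.0 at hour 3, 9.22, 11.2 and 11.4 at day 8 and 11.6, 34.3 and 19.0 at day 23. They made up 81.9% to 91.5% of tRNA counts in replicates 10 to 18 and 41.7% to 58.8% in replicates 1 to 7, while replicates 8 and 9 had 89.3% and 79.8%. The 14 heavy-strand tRNA genes summed to 5.27, 15.8 and 9.61 CPM at hour 0, 8.06, 8.86 and 10.2 at hour 3 and 3.76, 6.76 and 3.29 at day 1. They had 29.1, 26.0 and 25.8 at day 2, 10.6, 14.7 and 11.4 at day 8 and 8.14, 4.12 and 4.797 at day 23. Day 2 was highest in both sums, and the same libraries had the highest receptor background, 1776 to 1947 CPM; its part in the tRNA counts was not tested.

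Within the set of hour 0, 5 of 13 tRNA genes were higher at day 2 than at day 1, and 0 lower, where 12% of all genes tested were higher and 11.2% lower. Rarely counted genes could pass the filter through day 2, where they are high, which limits this count. mt-Td, for example, had 2, 8 and 6 counts at day 1 and 26, 44 and 46 at day 2, so its call adds little. mt-Ts1 had 66.1, 95.6 and 98.0 CPM at day 2, against 19.4, 23.8 and 19.7 CPM at day 1 (log2 fold change 2.05 ± 0.36, adjusted p = 0.00020). Also called were mt-Td (aspartate, 3.39), mt-Tw (tryptophan, 2.46), mt-Tq (glutamine, 2.23) and mt-Tp (proline, 1.65), and each of these 4 lost its call when some 1 library was left out, mt-Td without replicate 13 (2.99) or 17 (3.28), mt-Tp without 13 (1.55), 15 (1.41) or 18 (1.52), mt-Tq without 13 (1.76), 15 (1.99) or 16 (2.10), and mt-Tw without any but 14 (1.91 to 2.48). Against hour 0, mt-Ts1 alone was higher at day 2 (1.43 ± 0.36, adjusted p = 0.0048) and none was lower; at day 1 edgeR called 0 tRNA genes, with 3 at an unadjusted p under 0.05 and 1 called by limma-voom.

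Between the sets some tRNA genes were higher and some lower, as was the case over all genes tested. At hour 3, against hour 0, 3 of 13 were higher and 3 lower, where 16.9% of all genes tested were higher and 43.1% lower. At day 8, 3 were higher and 5 lower, where these shares were 11.2% and 32.7%, and at day 23, 2 were higher and 4 lower, where they were 8.51% and 25.4%. Rarely counted genes such as mt-Th, mt-Tv and mt-Te could pass the filter through the groups where they are high. The tRNA counts are therefore not read as a result against these shares. mt-Th, a histidine tRNA gene, had 0 counts in all 9 libraries of hour 0, day 1 and day 2, and 67, 53 and 10 counts in the groups of hour 3, day 8 and day 23. Against a floor of 3 counts over the hour 0 group, it was at least 13.5-fold higher at hour 3, at least 11.3-fold higher at day 8 and at least 3.49-fold higher at day 23. mt-Tv, the valine tRNA gene between the rRNA genes, had 4.69, 2.64 and 6.43 CPM at hour 3 and 2.58, 3.33 and 2.64 CPM at day 8, against 0.290, 0.113 and 0.0827 CPM at hour 0. mt-Ts1 ran the other way, at 6.00, 3.03 and 6.95 CPM at hour 3 and 3.67, 4.63 and 3.72 CPM at day 8, against 23.2, 38.2 and 35.2 CPM at hour 0 (log2 fold changes -2.59 ± 0.40 and -3.00 ± 0.40). mt-Te, a glutamate tRNA gene of the light strand, had 0 counts at day 23 and 28 at hour 0, so it was at least 8.93-fold lower at day 23. The other tRNA genes called against hour 0 were mt-Tl1 (leucine, 1.73), mt-Tq (-1.82) and mt-Te (-3.16) at hour 3, mt-Tm (methionine, 1.93), mt-Tq, mt-Td, mt-Te and mt-Tp at day 8, and mt-Ts1 (-1.36, adjusted p = 0.0088, groups overlapping), mt-Td and mt-Tp (-1.60) at day 23. Leaving out single libraries ended the calls of mt-Tl1, mt-Tq and mt-Te at hour 3, of mt-Tm, mt-Tq, mt-Td, mt-Te and mt-Tp at day 8, and of mt-Ty, mt-Th, mt-Te and mt-Tp at day 23. Without replicates 8 and 9 mt-Td, mt-Te and mt-Tp did not pass at day 23, while mt-Ts1 was still lower and mt-Th still higher. All these contrasts cross the sets.

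At day 23 mt-Ts1 was higher than at day 8 (log2 fold change 1.64 ± 0.40, adjusted p = 0.013), with 26, 286 and 24 counts in replicates 7, 8 and 9. Without replicate 8 it was at 0.35 and without replicates 8 and 9 at 0.21, and passed in neither. mt-Ty, a tyrosine tRNA gene of the light strand, had 15, 149 and 47 counts in these libraries, and was higher than at hour 3 (1.67 ± 0.55, adjusted p = 0.021) and than at hour 0 (1.55 ± 0.54, adjusted p = 0.032). Without replicates 8 and 9 it was at -0.08 against hour 3 and at -0.19 against hour 0, and its calls were also lost without replicate 4 (1.51), 8 (1.27) or 9 (1.49) against hour 3 and without 8 (1.15), 9 (1.38), 10 (1.60) or 11 (1.29) against hour 0. Against hour 3, mt-Ts1 was higher too (1.23, adjusted p = 0.020), but not without replicate 5 (0.96), 8 (-0.061) or both 8 and 9 (-0.21). mt-Tv was lower (-2.22, adjusted p = 0.048), a call that was lost without any 1 of the 6 libraries (-2.60 to -1.89) or without replicates 8 and 9 (-1.68).

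**Figure D5:**
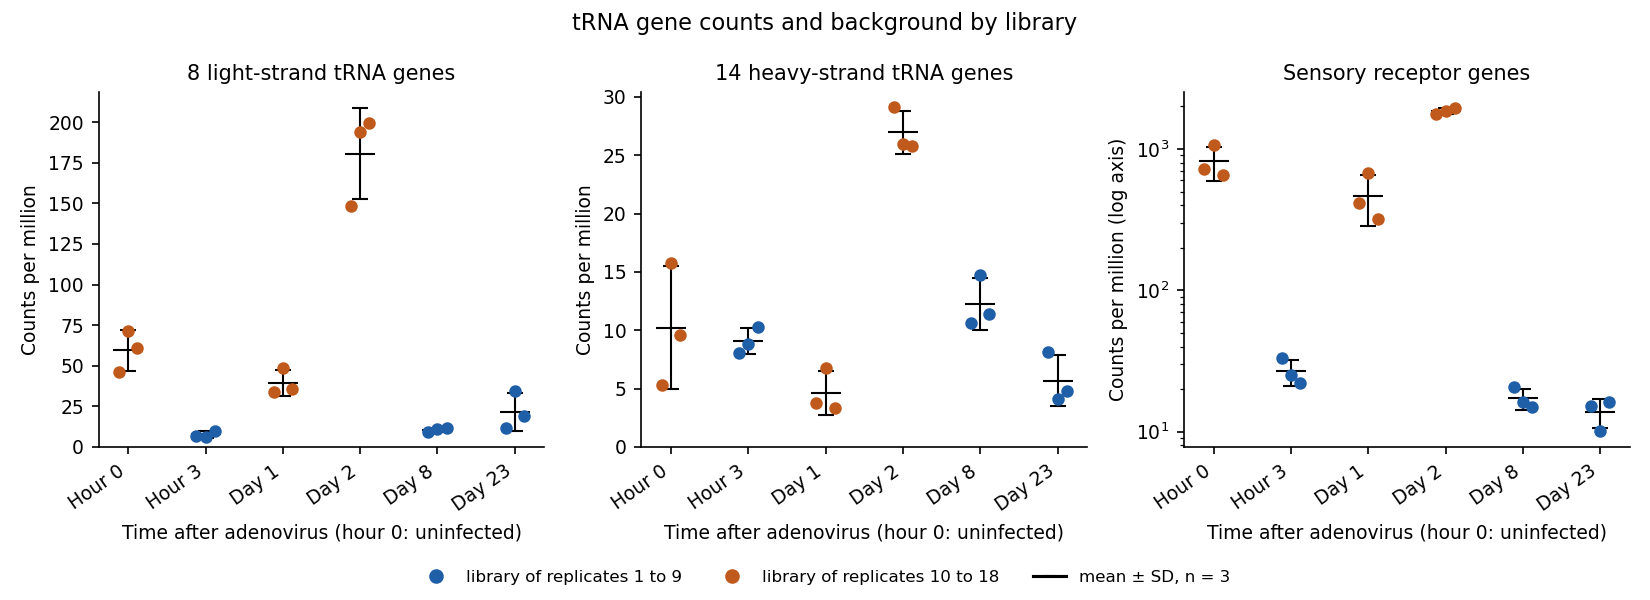
CPM of the library totals on the 8 light-strand and the 14 heavy-strand mitochondrial tRNA genes and on sensory receptor genes (log axis), by group. Points are libraries, coloured by set, and bars are mean ± SD (n = 3); day 2 is highest in all 3 panels, and light-strand tRNA genes are at 7.68 ± 2.05 at hour 3 and 181 ± 27.9 at day 2.

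The RNA polymerase, transcription factors, processing enzymes and decay factors of mitochondria are encoded in the nucleus. A list of 39 such genes was examined, of which 38 were matched and tested and Prorp was not. At day 1, 4 were higher and 2 lower than at hour 0, where 9.67% of all genes tested were higher and 12.8% lower, and the list's median log2 fold change was 0.28, beside -0.41 over all genes. Pnpt1, a nuclease of the mitochondrial intermembrane space and matrix that is induced by interferon, had 72.7 ± 2.6 CPM at day 1, against 20.1 ± 1.6 CPM at hour 0 (SD, n = 3; log2 fold change 1.86 ± 0.19, adjusted p = 4.8e-09). Ppargc1a, a coactivator that promotes mitochondrial biogenesis, had 4.73 ± 1.7 CPM at day 1, against 15.7 ± 3.7 CPM at hour 0 (-1.73 ± 0.33, adjusted p = 0.00016).

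Trmt10c, a subunit of the enzyme that cuts tRNA 5′ ends, was higher by 0.94 at day 1, and Fastk and Tbrg4, of the FASTK family of mitochondrial RNA-binding proteins, by 0.70 and 0.66. Gabpa, a subunit of GA-binding protein, a nuclear activator of respiratory chain genes, was lower, with a log2 fold change of -0.61. Trmt10c, Fastk, Tbrg4 and Gabpa were named after their values were seen, as were Esrra and Rexo2 below. Their calls were not recomputed gene by gene with replicates left out. Without the day 2 libraries, 2 of the list were higher at day 1 in place of 4. The genes of the transcription machinery did not pass at day 1. Polrmt, the polymerase, had a log2 fold change of 0.51 ± 0.26 (adjusted p = 0.16), Tfam, which activates transcription and packages mitochondrial DNA, -0.04 ± 0.21 (adjusted p = 0.92), and Tfb2m, an initiation factor, -0.57 ± 0.36 (adjusted p = 0.28). Lrpprc and Slirp, whose proteins form a complex that stabilises mitochondrial mRNAs, did not pass either, at 0.45 ± 0.21 (adjusted p = 0.13) and 0.21 ± 0.44 (adjusted p = 0.79). Ppargc1b, a relative of Ppargc1a, had -0.45 ± 0.32 (adjusted p = 0.35).

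At day 2 Pnpt1 was still higher (1.73 ± 0.19, adjusted p = 3.6e-08) and Ppargc1a still lower (-2.17 ± 0.35, adjusted p = 2.6e-05) than at hour 0. Of the list 1 gene was higher and 3 lower, where 5.12% of all genes tested were higher and 9.63% lower, the others being Gabpa (-1.12) and Esrra (-1.38), a nuclear receptor that acts with Ppargc1a. Against day 1, 5 were lower at day 2 and 0 higher, where 11.2% of all genes tested were lower and 12% higher, among them Trmt10c (-1.08) and Rexo2, a nuclease of short RNAs (-0.74). At day 8 Ppargc1a had 62.7 ± 14 CPM, against 15.7 ± 3.7 CPM at hour 0 (1.99 ± 0.31, adjusted p = 3.1e-05), and with library totals alone it was still higher, by 1.58. Of the list 5 were higher and 0 lower at day 8, where 11.2% of all genes tested were higher and 32.7% lower. Library totals, which moved the median of all genes by -0.39 on the log2 scale, gave 2 higher and 4 lower, where 10.3% of all genes called were higher.

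At hour 3, 12 of the 38 were higher and 11 lower than at hour 0, where 16.9% of all genes tested were higher and 43.1% lower. Library totals, which moved the median of all genes by -1.15 on the log2 scale, gave 4 higher and 26 lower, where 7.09% of all genes called were higher. Pnpt1 had 128 ± 17 CPM at hour 3, against 20.1 ± 1.6 CPM at hour 0 (log2 fold change 2.67 ± 0.19, adjusted p = 2.3e-12), and was still higher, by 1.497, with library totals. Ppargc1a (-2.24 ± 0.35) and Polrmt (-1.52 ± 0.27) were lower under both scalings. Tfam (0.70) and Lrpprc (0.68) were higher with TMM and lower with library totals, both at -0.49. Tfb2m, higher by 1.21 with TMM, was at 0.06 with library totals and did not pass. Tfam lost its TMM call without replicate 4 (0.60). Ppargc1b was lower than at hour 0 at hour 3 (-1.01, adjusted p = 0.012), but not without replicate 4 (-0.89), 6 (-0.92) or 11 (-0.73), and at day 23 (-0.88, adjusted p = 0.041), but not without 7 (-0.65), 9 (-0.89), 11 (-0.61), 12 (-0.89) or both 8 and 9 (-1.49, adjusted p = 0.075). Of all genes called between day 23 and hour 0, 25.1% were higher with TMM and 6.05% with library totals, which moved the median of all genes by -0.44 on the log2 scale. At day 23, 6 of the list were higher and 2 lower than at hour 0, where 8.51% of all genes tested were higher and 25.4% lower. Library totals gave 0 higher and 9 lower, and without replicates 8 and 9, with 1 library left at day 23, no gene of the list passed in edgeR. Ppargc1a, higher by 1.13 at day 23 (adjusted p = 0.0097), was at 0.29 without replicates 8 and 9, 0.68 with library totals and 0.77 without replicate 9, and passed in none of these. Pnpt1, higher by 0.56 (adjusted p = 0.026), was at 0.27 without replicates 8 and 9, 0.10 with library totals, 0.53 without replicate 8, 0.46 without 9 and 0.49 without 11, and passed in none of these. Between day 23 and day 8 edgeR called 0 of the 38, with 5 at an unadjusted p under 0.05, while DESeq2 and limma-voom each called 2 lower.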

How the data were processed

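RNA sequencing was done on 18 libraries of sorted gp38+ cells, 3 in each of 6 groups, each from a mouse of its own, from 10 ng of RNA. The deposited table holds raw counts per Ensembl gene; FastQC, STAR, Subread and DESeq2 and the build mm10 are named in the submitters' processing notes, while their versions, the strand setting, the annotation release and the treatment of reads that map to several places are not given in the sources used here. Symbols, chromosomes and exon lengths came from GENCODE M21 (GRCm38). It matched 55141 of 55401 identifiers, and the 260 others held 0.0241% of counts. All genes on the mitochondrial chromosome were taken, and rRNA, tRNA and protein genes were treated apart. The genes, the nuclear list and the marker lists were chosen with earlier results of these data known.

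Counts were filtered with filterByExpr (minimum count 10, minimum total 15), scaled by TMM and fitted in edgeR 4.0.16 (R 4.3.3) with 1 negative binomial quasi-likelihood model over the 6 groups. P-values were adjusted by Benjamini-Hochberg over the 27525 genes tested, with a threshold of 0.05, and the fit was tested on simulated data. SE is the size of the log2 fold change divided by the square root of F. Shares and counts per kb use library totals. Nuclear copies were sought as 50-base windows shared with annotated transcripts on other chromosomes. Named genes were all members tested and, from the nuclear list, Polrmt, Tfam, Tfb2m, Lrpprc, Slirp, Ppargc1a, Ppargc1b and Pnpt1; the other nuclear genes named were chosen after their values were seen.

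Totals ran from 4398234 to 15234431 counts, with a median of 10227904. A gene at 0 over a group was set to a floor of 3 counts, which covers counting error only. No 2 libraries of a group agreed within counting noise (chi-square of 3.4 to 80.7 per degree of freedom). Alternatives were DESeq2 1.42.0, limma-voom (limma 3.58.1), other scalings and filters, fewer groups, and leaving out each replicate.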

Additional observations from a re-analysis of the deposited data

How the results depend on the processing

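No paired analysis was possible because replicate numbers run from 1 to 18 without repeats and no groups share any. Leaving out the day 2 libraries, leaving out day 23 replicates 8 and 9 together, and the fit of 9 libraries against hour 0 were chosen after seeing the data. The labels give each library a mouse of its own; there are 3 per group, and low counts limit the tRNA genes and the copied protein genes most. Of the calls and counts recomputed under settings other than a left-out replicate, 841 single-gene values kept direction and side of the threshold, 106 lost the threshold and 16 changed sign; of summary values 494 stayed within their limit and 109 moved. With a replicate left out these were 506, 129 and 1, and 435 and 51. The cause was not tested unless a setting itself leaves out genes or libraries.

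With library totals alone, the protein genes higher than at hour 0 numbered 0 for hour 3 (7 with TMM), 2 for day 8 (7) and 4 for day 23 (8), and the lower ones 2 for hour 3 (0) and 1 for day 2 (4). Higher rRNA genes numbered 0 for hour 3 (2) and 1 for day 23 (2). The tRNA genes higher were 2 at day 2 (1) and 1 at day 23 (2), and the lower ones 8 at hour 3 (3) and 7 at day 23 (4). Against hour 3, higher protein genes were 6 at day 8 (0) and 7 at day 23 (1), higher rRNA genes 2 at day 8 (0), and lower tRNA genes 0 at day 23 (1). The nuclear list had 4 higher and 26 lower at hour 3 (12 and 11), 2 higher at day 2 (1), 2 higher and 4 lower at day 8 (5 and 0), and 0 higher and 9 lower at day 23 (6 and 2). Signs turned at hour 3 against hour 0 for mt-Nd1 (-0.0073), mt-Nd2 (-0.32), mt-Co1 (-0.086), mt-Nd3 (-0.025), mt-Nd4 (-0.46), mt-Nd5 (-0.42), mt-Cytb (-0.34), Tfam (-0.49) and Lrpprc (-0.49), and for Tfam at day 8 against hour 3 (0.067). This scaling moved the median of all genes against hour 0 by -1.15 for hour 3, 0.095 for day 1, 0.37 for day 2, -0.39 for day 8 and -0.44 for day 23.

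With a filter of 5 CPM in 3 libraries, which drops most tRNA genes, higher tRNA genes against hour 0 numbered 0 for hour 3 (3), 0 for day 8 (3) and 0 for day 23 (2), and against hour 3 at day 23 they were 1 higher (2) and 0 lower (1). The test over 6 groups then called 6 tRNA genes (13). Protein genes were 2 lower at day 2 (4) and 4 higher at day 8 (7), and the nuclear list 3 higher at day 8 (5) and 1 lower at day 23 (2). Without a filter, tRNA genes lower at hour 3 were 1 (3), and rRNA genes lower were 2 for day 2 against hour 0 (0), 1 for day 23 against hour 3 (0) and 2 for day 23 against day 8 (0), with 1 higher for day 8 against hour 3 (0) and 0 tRNA genes lower for day 23 against hour 3 (1). The nuclear list had 7 higher and 1 lower at day 1 (4 and 2), 9 higher at day 8 (5) and 0 lower at day 23 (2).

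limma-voom called 1 tRNA gene lower at day 1 (0), 1 rRNA gene lower (0) and 4 tRNA genes higher (1) at day 2, and 8 tRNA genes higher for day 2 against day 1 (5). It called 0 tRNA genes higher (2) and 2 lower (1) for day 23 against hour 3, and 1 rRNA gene lower (0) and 0 tRNA genes higher (1) for day 23 against day 8. DESeq2 called 2 protein genes lower (4) and 2 tRNA genes higher (1) at day 2, 1 rRNA gene (0) and 8 tRNA genes (5) higher for day 2 against day 1, 1 protein gene lower for day 8 against hour 3 (0) and 2 rRNA genes lower for day 23 against day 8 (0). With DESeq2 size factors in edgeR, 2 protein genes were lower at day 2 (4), and the nuclear list had 2 higher at day 2 (1) and 3 higher and 1 lower at day 8 (5 and 0). Scaling on nuclear genes gave 0 tRNA genes lower for day 23 against hour 3 (1).

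Fitted on the 9 libraries of a set, 1 tRNA gene was lower at day 1 (0), 1 higher and 3 lower for day 23 against hour 3 (2 and 1), and 0 higher for day 23 against day 8 (1). With only the compared groups in the fit, day 2 had 1 rRNA gene lower (0) and 2 tRNA genes higher (1) than hour 0, and day 23 had 4 protein (8), 0 rRNA (2) and 0 tRNA genes (2) higher and 0 tRNA genes lower (4). Without the day 2 libraries, day 8 had 4 protein genes higher (7) and 3 tRNA genes lower (5), day 23 had 1 tRNA gene higher (2), and the nuclear list had 2 higher at day 1 (4), 2 higher at day 8 (5), and 3 higher and 1 lower at day 23 (6 and 2).

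Without day 23 replicates 8 and 9 together, day 23 had 1 protein gene higher (8), 1 tRNA gene higher (2) and 1 lower (4) than hour 0, 0 protein genes higher (1) and 0 tRNA genes higher (2) or lower (1) than hour 3, and 0 protein (2) and 0 tRNA genes (1) higher than day 8. Signs turned for mt-Nd6 (-0.058) and mt-Ty (-0.19) against hour 0, for mt-Nd3 (-0.18), mt-Ty (-0.081) and mt-Ts1 (-0.21) against hour 3, and for mt-Nd3 (-0.26) against day 8. With each replicate left out in turn, mt-Ts1 against hour 3 ran from -0.061 (without replicate 8) to 1.60 (without replicate 7).

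Leaving out each replicate in turn gave, against hour 0, 4 to 7 protein genes higher for hour 3, 0 to 0 for day 2, 3 to 7 for day 8 and 4 to 9 for day 23, 1 to 4 lower for day 2, and 0 to 2 rRNA genes lower at day 1. The tRNA genes were 1 to 4 lower for hour 3, 0 to 2 lower for day 1, 2 to 5 lower for day 8 and 1 to 2 higher at day 23. Day 2 against day 1 had 2 to 5 tRNA genes higher. Day 23 against hour 3 had 1 to 2 protein genes higher and 0 to 1 lower, and 0 to 2 tRNA genes higher and 0 to 1 lower. Day 23 against day 8 had 1 to 2 protein genes higher, 0 to 2 rRNA genes lower and 0 to 2 tRNA genes higher.

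Without the 10 most abundant nuclear genes, rRNA took 6.63% (hour 0), 5.59% (day 2), 16.3% (day 8) and 11.1% (day 23) of counts, protein genes took 0.929% (hour 0), 0.353% (day 1), 0.802% (day 2), 1.35% (day 8) and 1.44% (day 23), and tRNA genes 20.1 CPM at hour 3 and 27.6 at day 8. Per kb of exon, the share of mt-Nd6 in the protein gene sum was 6.90% for hour 0, 5.00% for hour 3, 19.0% for day 1, 14.7% for day 2, 3.64% for day 8 and 6.47% for day 23. mt-Cytb took 24.4%, 23.2%, 13.0%, 18.4%, 24.2% and 26.0% in the same order of groups.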
